A study of Mus musculus with 24 samples.

Results

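The hippocampus of old female mice (FO, 24 months) was compared with that of young female mice (FY, 3 months), with 4 arrays in each group and 1 mouse on each array. A probe was taken into the comparison when every array of FY, or every array of FO, had a normalized intensity above 16, which held for 11651 of the 25697 probes on the array. Of these, 11086 were above 16 in all 8 arrays, 250 entered through FO alone and 315 through FY alone, and 10985 carried a gene symbol, for 8338 genes. The 8 arrays belong to a set of 24 that also covers adult females (FA, 12 months) and males at the same ages (MY, MA and MO), again with 4 per group. All mice were C57BL/6 of the NCr substrain, aged with no genetic change and no drug. Females were staged by daily vaginal lavage and killed in diestrus, a stage of low estrogen, and the old females had stopped cycling and stayed in diestrus. Age and reproductive state therefore cannot be told apart between FO and FY. The dissected tissue held CA1, CA2, CA3 and the dentate gyrus, and the 3 ages were separate animals, so that nothing was followed within 1 mouse.

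Microglia are the resident phagocytes of the brain, and they sense debris, immune complexes and microbial products through Fc, Toll-like and lectin-like receptors. They are also the main brain source of C1q, the molecule that starts the classical complement cascade and that tags synapses for removal in development. Aging of the rodent hippocampus is known for a gain of glial immune transcripts, for loss of newborn neurons in the dentate gyrus and for changes in myelin and vessels. A whole piece of tissue was measured here, so that fewer or more cells of a type cannot be told apart from less or more RNA per cell.

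Intensities under 16 were set to 16, since 22.3% of the deposited values in these 8 arrays lie below 0, and differences are given as log2(FO) minus log2(FY) with their standard error (SE). Limma called 82 of 11651 probes at a Benjamini-Hochberg adjusted p under 0.05, which is a background of 0.704%. Of these, 76 rose (0.652%) and 6 fell (0.0515%). They stood for 65 genes that rose (0.78% of 8338) and 2 genes that fell (0.024%), with 4 called probes that carry no gene symbol. In each of the 82 probes the lowest array of one group lay above the highest array of the other, as was the case for 5.42% of all probes tested. At an unadjusted p under 0.05 limma counted 788 probes (6.76%), and the methods' test, which has a fold limit and no correction for multiple tests, called 343 (2.94%). The median log2 difference of the risen probes was 0.98, with a range from 0.36 to 3.26. Of the 76, 49 were above 16 in all 8 arrays and 27 had at least 1 FY array at 16, where the size of the difference depends on that floor. Those 27 passed the filter through FO, the group where they are high. A share of the tested members of a list is therefore not a share of the list. The number that entered this way is given beside some of the lists it touches. The lists were chosen with earlier results of these data known, so counts within them are description and no test. With the replicate numbers of the labels as a block in a fit of only the 8 arrays, which was added after the data were seen, limma called 246 probes (2.11%), of which 143 rose (1.23%) and 103 fell (0.884%). The 2 fits shared 74 calls, 70 of them rises and 4 of them falls. The labels do not say whether a replicate number marks a shared batch, and arrays of the same number came from separate mice. Only for number 3 were the deviations of FY and FO from their group means more alike than for arrays of different numbers. The block over all 24 arrays, which was planned, called 84 probes (79 rises, 5 falls).

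**Figure D1:**
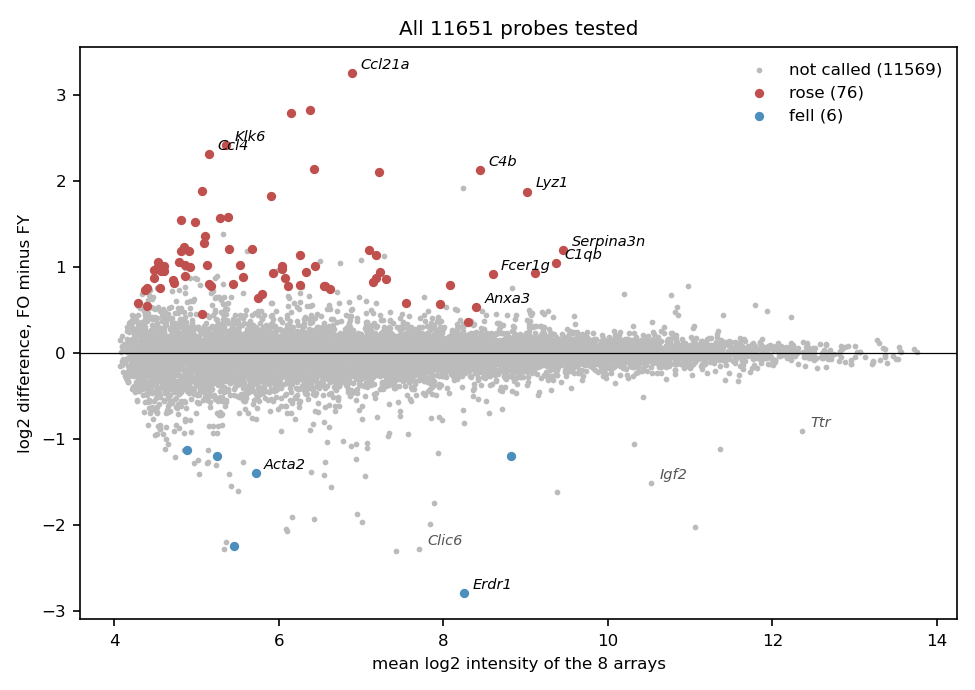
The log2 difference FO minus FY (y axis) of each of the 11651 probes tested is plotted against its mean log2 intensity over the 8 arrays (x axis), with 1 point per probe. The 76 risen probes (red) lie between 0.36 and 3.26, and the 6 fallen ones (blue) include Acta2 and Erdr1. Ttr, Igf2 and Clic6, labelled in grey, had large negative differences and were not called.

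The arrays were alike in depth of detection, with 11991 to 12437 probes above 16 in each and Pearson's r of 0.969 to 0.994 between pairs across the probes tested. Xist, the transcript of the silenced X chromosome, was above 16 in all 8 arrays (probes from 78.5 to 251), and the Y-linked Eif2s3y was under 16 in all 8, as the labels require. FY3 and FO3 stood apart, with array weights of 0.338 and 0.411 against 1.149 to 2.072 for the other 6. In these arrays a pair of the 5 probes for the cytoskeletal gene Actb read low, at 108 and 124 in FY3 and at 263 and 312 in FO3. Without FY3 and FO3 limma called 43 probes, all of which rose, and all 43 were among the 76.

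The 3 C1q genes and C4b rose, and the other 7 complement genes tested were not called. C1qa, C1qb and C1qc encode the 3 chains of C1q, and C4b encodes the component that activated C1 cleaves. The C1qb probe read 469, 473, 419 and 489.8 in the FY arrays and 945, 735, 951 and 1256 in the FO arrays. C1qc read 372, 403, 435 and 401 in FY and 701, 627, 855 and 916 in FO. For C1qa the FY arrays lay between 86.7 and 108 and the FO arrays between 176 and 255. In all 3 genes every old mouse was above every young mouse, FO2 was the lowest old array and FO4 the highest. The log2 differences were 1.14 for C1qa (SE 0.13, limma adjusted p = 1.92e-05), 1.05 for C1qb (SE 0.14, adjusted p = 1.27e-04) and 0.93 for C1qc (SE 0.11, adjusted p = 4.20e-05). C4b changed most among the complement genes, from 147, 186, 165 and 171 in FY to 774, 618, 674 and 876 in FO, a 4.38-fold rise (log2 2.13, SE 0.18, limma adjusted p = 1.08e-07). The near-identical paralog C4a has its own probe, which stayed at or below 6.41 in all 24 arrays, so the 2 probes did not read alike, though whether the C4b probe also reads C4a transcripts was not tested. The median of the 11 complement genes was 0.00, as over all 8338 genes. C2, which encodes the protease that pairs with C4, was at 24.0 to 38.6 in FY and at 16 to 18.2 in FO, and Serping1, the C1 inhibitor, was at 92.2 to 156 in FY and 64.2 to 102 in FO. Neither was called without the block (adjusted p = 0.685 and 0.732), while with the replicate block in the 8 arrays both fell (adjusted p = 0.0196 and 0.0270).

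The lysozyme genes, whose products cut bacterial cell walls in phagocytes, rose more than C1q. Lyz2 read 59.9, 54.8, 97.9 and 81.8 in FY and 299.7, 167, 436 and 422 in FO (log2 2.11, SE 0.36, limma adjusted p = 0.00183), and a second Lyz2 probe had 1.83. Lyz1 read 259.9, 225, 296 and 308 in FY and 1009, 602, 1017 and 1589 in FO (log2 1.88, SE 0.29, adjusted p = 6.03e-04). FO2 was again the lowest old array in each. Lyz1 and Lyz2 are near-identical copies side by side in the genome, and whether a probe for one reads the other was not tested. Some probes for each read nothing, with 2 for Lyz1 between -9.89 and 0.950 and 1 for Lyz2 between -6.93 and 3.55 in all 24 arrays. Of 13 genes of phagocyte granules on the array 4 were tested, 1 of them (Hvcn1) through FO alone, and all 4 were called. Hvcn1, the proton channel that balances charge during the oxidative burst, went from 16 to 22.9 in FY to 38.9 to 62.3 in FO, and Cyba, a membrane subunit of the NADPH oxidase that produces the burst, from 96.5 to 125 to 156 to 224 (log2 1.53 and 0.83, limma adjusted p = 4.01e-05 and 0.00356). Slc11a1, which pumps metal ions out of the phagosome, rose by 1.21 on the log2 scale (SE 0.20, adjusted p = 0.00130) at 1 of its 2 tested probes, and the second had a difference of 0.01.

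The bases just before the starts of 4 of these genes are shown because C1q and lysozyme are a set of phagocyte genes that rose together and their promoter sequences were to hand. Each run is the 250 bases upstream of the transcription start in the RefSeq table of build GRCm38.p6, read 5′ to 3′ on the gene's own strand. All 4 genes lie on the minus strand, at chr4:136886201-136886450 (C1qb), chr4:136892915-136893164 (C1qc), chr10:117282273-117282522 (Lyz2) and chr10:117292869-117293118 (Lyz1). Capitals mark ACTTCCT, the reverse complement of AGGAAGT, a purine-rich word of the kind that ETS-family factors such as PU.1, the myeloid master regulator, are known to bind.
C1qb: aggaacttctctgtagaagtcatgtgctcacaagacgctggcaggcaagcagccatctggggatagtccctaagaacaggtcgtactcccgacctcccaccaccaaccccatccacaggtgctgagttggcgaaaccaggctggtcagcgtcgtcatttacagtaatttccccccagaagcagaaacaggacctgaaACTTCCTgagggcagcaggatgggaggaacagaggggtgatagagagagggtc
C1qc: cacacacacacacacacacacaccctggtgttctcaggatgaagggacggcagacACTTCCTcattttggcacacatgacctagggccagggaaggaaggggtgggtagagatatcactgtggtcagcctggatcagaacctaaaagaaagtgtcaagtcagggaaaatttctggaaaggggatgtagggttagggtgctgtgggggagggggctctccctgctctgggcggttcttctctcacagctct
Lyz2: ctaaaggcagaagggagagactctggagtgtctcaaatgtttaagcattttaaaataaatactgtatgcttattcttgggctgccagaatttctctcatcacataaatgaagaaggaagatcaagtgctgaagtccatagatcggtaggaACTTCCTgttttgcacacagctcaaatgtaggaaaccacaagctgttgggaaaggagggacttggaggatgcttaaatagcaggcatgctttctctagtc
Lyz1: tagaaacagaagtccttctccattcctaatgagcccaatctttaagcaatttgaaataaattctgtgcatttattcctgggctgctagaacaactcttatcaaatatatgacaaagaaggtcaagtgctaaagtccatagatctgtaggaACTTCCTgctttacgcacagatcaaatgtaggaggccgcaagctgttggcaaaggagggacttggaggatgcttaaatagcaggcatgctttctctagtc
The marked word began 53 bases before the start in C1qb, 195 in C1qc and 100 in both lysozyme genes. Lyz1 and Lyz2 shared 152 of the 250 positions (60.8%) and 92 of the last 100. The word was chosen after these sequences were seen and was searched on both strands. It occurred in 11 of the 42 risen genes that matched the promoter table, which count the 4 genes it was chosen from. Without those 4 it occurred in 7 of 38 risen genes (18.4%), in 7.66% of the 6806 tested genes that matched and in 8.8% of all 27025 genes of the table. A match is a description of the letters and not a bound site.

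The largest rises were of chemokine genes. Ccl4, a chemokine that activated microglia and macrophages secrete, was at 16 in all 4 FY arrays and read 94.7, 66.6, 81.6 and 78.1 in FO, which is at least 4.98-fold higher (limma adjusted p = 1.08e-07). A second Ccl4 probe did not pass the filter, with deposited values of -1.32 to 4.86 in FY and 7.51 to 17.7 in FO. Ccl3, another chemokine of these cells, was likewise at 16 in FY and read 43.3, 22.1, 38.2 and 34.1 in FO, at least 2.09-fold higher (limma adjusted p = 1.27e-04). Ccl12, a ligand of Ccr2 in mice, rose from 16 to 28.9 in FY to 33.2 to 54.2 in FO (log2 1.00, adjusted p = 0.0193), and leaving out any of 5 single arrays ended this call (adjusted p from 0.0560 to 0.129). Ccl21a, a ligand of Ccr7 known from lymphoid tissue, read 507, 297, 407 and 298 in FO, and 112 and 74.4 in FY2 and FY3, while FY1 and FY4 were at 16. The probes for Ccl21b and Ccl21c had the same 2 arrays at 16, and in the other 22 of the 24 arrays all 3 probes were above 16. The 3 genes are near-identical copies, and their probes cannot be taken as separate measurements. Their log2 differences were 3.26, 2.83 and 2.80, and without FY1 and FY4, an alternative added after the values were seen, they were 2.01, 1.86 and 2.04 (limma adjusted p = 0.00436, 0.00797 and 0.0124). Of the 28 CC and CX3C chemokine and receptor genes on the array 11 were tested, and 6 rose. These 6 are the 6 that entered through FO alone, so that the filter favoured this direction, and of the 5 above 16 in all 8 arrays 0 were called, with a median of 0.05. The neuronal chemokine Cx3cl1 (log2 -0.02) was not among them, and its microglial receptor Cx3cr1 went from 290.5 to 349 in FY to 374 to 494 in FO without passing the test (log2 0.38, adjusted p = 0.111, and 0.0304 with the replicate block in the 8 arrays).

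**Figure D2:**
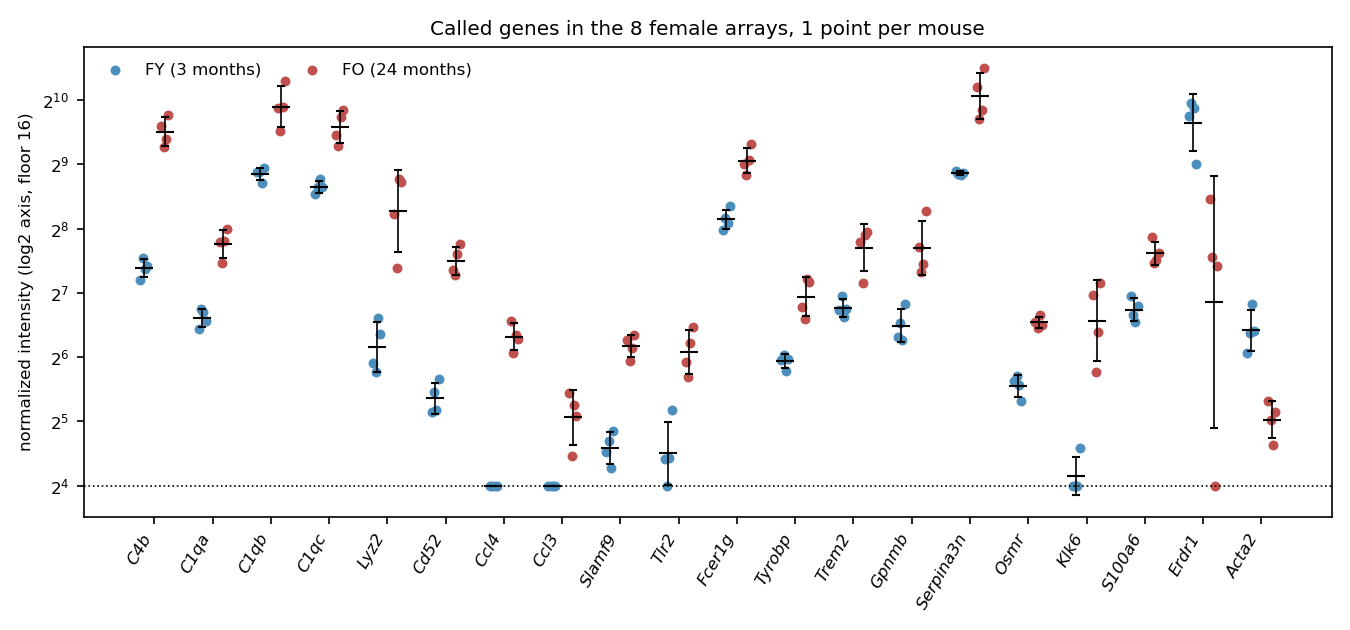
Normalized intensity (log2 axis, floor 16 as a dotted line) of 20 called genes in the 4 FY arrays (blue) and the 4 FO arrays (red), 1 point per mouse, with mean and SD as bars. In every gene shown the 2 groups do not overlap, Ccl4 and Ccl3 are at the floor in all FY arrays, and the Erdr1 values of FO run from 16 to 354.

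Several receptors that couple to immunoreceptor tyrosine-based activation motifs rose, as did their adaptor chains. Tyrobp, the adaptor of Trem2, read 62.0, 65.7, 55.0 and 62.4 in FY and 110.0, 96.4, 149 and 144 in FO, a 2.01-fold rise (limma adjusted p = 0.00165). Trem2, a receptor for lipids and lipoproteins, read 106, 124, 98.4 and 107 in FY and 222, 143, 239.5 and 248 in FO (1.92-fold, adjusted p = 7.95e-04). Fcer1g, the signalling chain shared by Fc receptors, went from 253 to 325 in FY to 458 to 638 in FO (1.89-fold, adjusted p = 6.03e-04). No group overlapped the other in these genes, and FO2 was the lowest old array in all 3. Among the Fc gamma receptors themselves, the activating Fcgr3 rose 1.92-fold (adjusted p = 0.00130) and the inhibitory Fcgr2b 2.36-fold (adjusted p = 9.50e-04, 2 FY arrays at 16). Fcgr1, the high-affinity receptor, was at 16 in all FY arrays and at 21.2 to 28.3 in FO, at least 1.5-fold higher (adjusted p = 0.00718), and it was not called without FO4 (0.0570) or with the replicate block in the 8 arrays (0.103). Ptpn6, a phosphatase that damps these receptors, rose 1.74-fold (adjusted p = 0.0122) and lost its call without any 1 of 4 arrays (adjusted p up to 0.0938). Of 11 genes of this group 6 rose and 0 fell, with a median of 0.59. Of the 11, 4 entered through FO alone, and of the 7 above 16 in all 8 arrays 4 rose.

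Some Toll-like receptors and leukocyte surface genes rose as well. Tlr2, which senses bacterial lipoproteins, read 21.3, 16, 21.5 and 36.2 in FY and 60.6, 51.6, 74.2 and 88.8 in FO (log2 1.57, SE 0.27, limma adjusted p = 0.00261). Tlr7, a sensor of single-stranded RNA, rose by 1.03 on the log2 scale, and Ly86, the partner of the receptor Cd180, by 0.79. The coreceptor Cd14 went from 18 to 30.6 in FY to 27.0 to 64.8 in FO and was not called (adjusted p = 0.0573, and 0.0396 with the replicate block in the 8 arrays). Thus 3 of 10 genes of the Toll-like group rose and 0 fell, and of the 8 above 16 in all 8 arrays 2 rose, with a median of 0.43. Cd52, a small glycoprotein on the surface of leukocytes, read 35.5, 44.0, 36.3 and 50.6 in FY and 163, 156, 194 and 217 in FO, a 4.39-fold rise (adjusted p = 2.59e-05) with a wide gap between the groups. Slamf9 and Cd84, both of the SLAM receptor family, and the tetraspanning Ms4a6d rose by 1.58, 0.99 and 1.21. Cd86, a costimulatory ligand, rose at both of its probes (log2 0.82 and 0.80), but the first of them lost its call when any of 6 single arrays was left out (adjusted p from 0.0690 to 0.149). Together 5 of 9 of these surface genes rose, and 4 of the 7 above 16 in all 8 arrays, with a median of 0.80. Lag3 and Havcr2, inhibitory receptors best known from T cells, rose by 1.28 and 0.85, of which the Havcr2 call was lost without any of 6 arrays (adjusted p from 0.0625 to 0.184) and with the replicate block in the 8 arrays (0.0597).

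Of genes that identify microglia in the healthy brain some rose and others did not. Aif1, which encodes the marker protein IBA1, went from 54.7 to 93.1 in FY to 113 to 138 in FO (log2 0.78, limma adjusted p = 0.00533), and Tmem119 from 54.6 to 63.5 to 84.1 to 116 (log2 0.79, adjusted p = 0.00718, and 0.0513 without FO4). P2ry12, a purine receptor of surveying microglia, read 57.9, 105, 142 and 61.7 in FY and 61.8, 73.5, 79.2 and 74.0 in FO, with the 2 groups overlapping (log2 -0.25, SE 0.24, adjusted p = 0.970). Of 18 homeostatic microglia genes 3 rose and 0 fell, and 15 were above 0, with a median of 0.32. The summed intensity of these 18, of which Cst3 is the brightest, overlapped between the groups, at 13006 to 16620 in FY and 15216 to 16069 in FO (exact permutation p = 0.429, two-sided). The summed intensity of the 4 defining microglia markers tested ran from 481 to 577 in FY and from 645 to 815 in FO (exact permutation p = 0.0286, two-sided over 70 divisions of 8 arrays, the smallest that 4 against 4 allow). This sum is not separate from the Aif1 and Tmem119 calls. Within it the FY and FO means were 73.4 and 124 for Aif1, 58.6 and 102 for Tmem119, 318 and 414 for Cx3cr1, and 91.7 and 72.1 for P2ry12. Gpnmb, a glycoprotein of lipid-loaded phagocytes, rose 2.30-fold (adjusted p = 0.00798, and 0.0630 without FO4). With Lyz2, Cd52, Tyrobp and Trem2 it made up the 5 of 23 genes that rose in a list of disease-associated microglia, whose median was 0.31. Of the 23, 2 entered through FO alone, and the 5 that rose did not. Gpr34, a lysophospholipid receptor of microglia measured by polymerase chain reaction in the study, went from 51.5 to 74.3 in FY to 91.2 to 105 in FO and did not pass the test (log2 0.70, adjusted p = 0.0873, and 0.0246 with the replicate block in the 8 arrays). In that fit 7 of the 18 homeostatic and 8 of the 23 disease-associated genes rose.

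Of the 65 genes that rose, 40 are in a list of microglial genes from purified brain cells (Zhang), 31 in a list from single cells (Zeisel) and 18 in the list of microglial sensing genes called the sensome (Hickman), and 41 (63.1%) are in at least 1 of these. The same 3 lists together hold 3.27% of the genes tested. These lists come from other mice, not from these samples. Of the genes tested, 29 of 181 in the Zhang, 25 of 185 in the Zeisel and 10 of 41 in the Hickman list entered through FO alone. The 63.1% therefore rests in part on a filter that favoured rises. Among genes above 16 in all 8 arrays, 26 of 146 in the Zhang and 20 of 154 in the Zeisel list rose. Of the sensome genes tested, 18 of 41 rose and 0 fell, and of the 31 above 16 in all 8 arrays 11 rose. The P2ry12 and Cx3cr1 probes described above belong to the other 23.

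**Figure D3:**
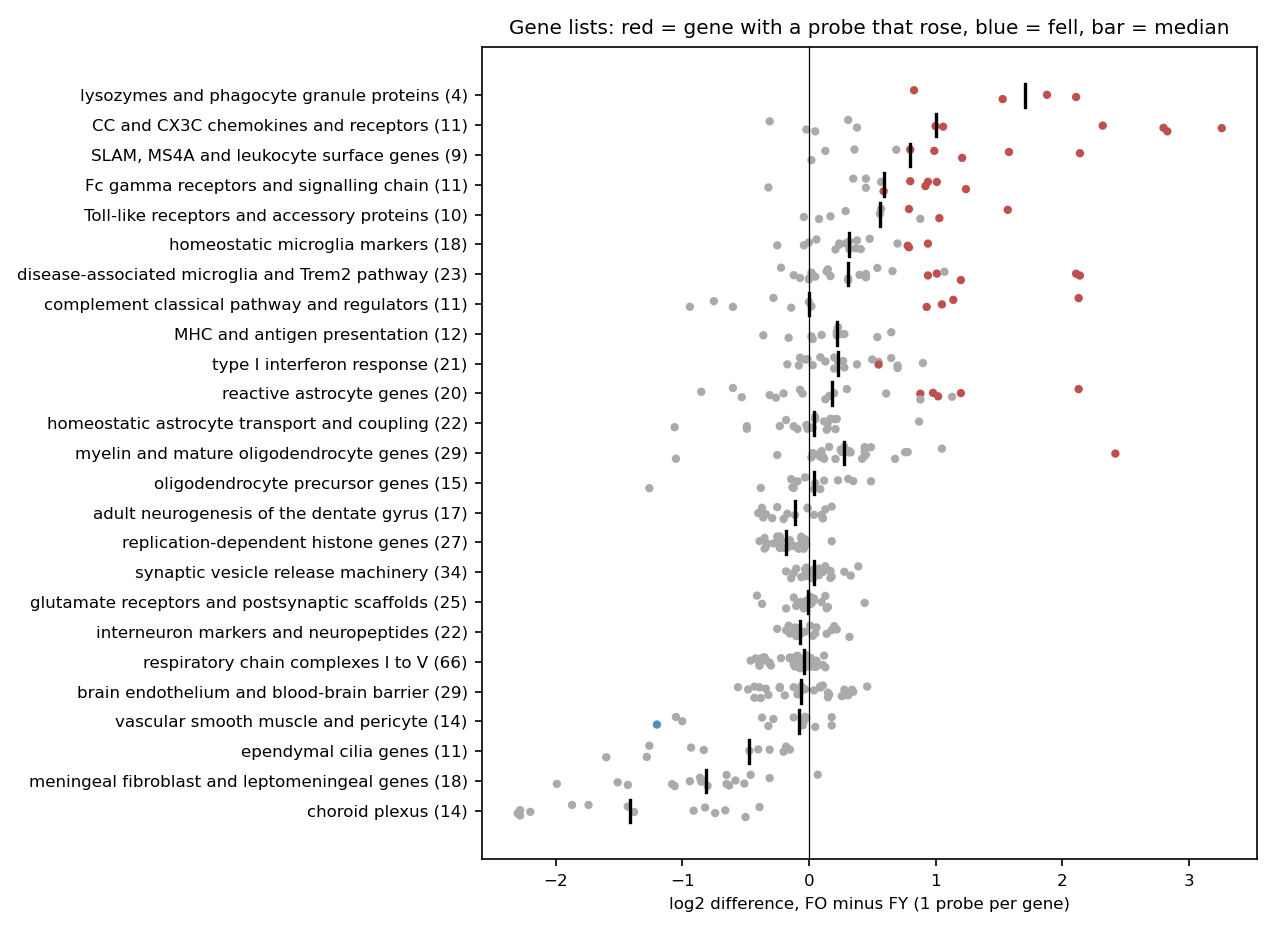
Log2 difference FO minus FY (x axis) of every tested gene in 25 gene lists (rows, number of genes in brackets), 1 probe per gene, with the median of each list as a black bar. Red and blue points are genes with a probe that rose or fell. The medians run from 1.71 in lysozymes and granule proteins to -1.41 in choroid plexus, where 0 of 14 genes were called.

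Outside those 3 lists, 24 genes rose. They include Lyz2 and Gpnmb, described above as phagocyte genes, so a gene outside the lists is not thereby non-microglial. Several others are known from astrocytes and oligodendrocytes. Few are in the study's lists of these cells. Of the astrocyte genes 1 of 87 (Zhang, median -0.02) and 2 of 136 (Zeisel, median 0.01) rose. Among Zeisel's oligodendrocyte genes 1 of 257 rose (median 0.07). Of those above 16 in all 8 arrays, 0 of 83 (Zhang astrocyte), 1 of 130 (Zeisel astrocyte) and 0 of 248 (Zeisel oligodendrocyte) rose. In the study's lists Serpina3n is a CA1 pyramidal gene and Osmr an endothelial gene. Serpina3n, a protease inhibitor of reactive astrocytes, read 477, 459.7, 454 and 467 in FY and 1174, 832, 918 and 1442 in FO. The young arrays lay within a narrow band, and the call was fragile, with an adjusted p of 0.0356 over all arrays and 0.0617 to 0.209 when any of 7 single arrays was left out. Osmr, the receptor of oncostatin M, went from 39.7 to 52.2 in FY to 87.4 to 101 in FO (log2 0.98, SE 0.14, limma adjusted p = 2.43e-04). Cd44, a hyaluronan receptor, and Aspg, an asparaginase, rose by 0.88 and 1.02, with 3 FY arrays at 16 in each. Aspg lost its call without any of 5 arrays (adjusted p from 0.0524 to 0.0784). Gfap, the filament protein of astrocytes, read 76.6, 81.3, 184 and 105 in FY and 194, 168, 436 and 197 in FO. FY3 and FO3 were the highest arrays of their groups, and FY3 overlapped the FO range. The difference of 1.13 (SE 0.34) was not called (adjusted p = 0.208), while the replicate block in the 8 arrays gave an adjusted p of 6.73e-04. Of 20 reactive astrocyte genes 5 rose and 0 fell, with a median of 0.18 (8 rose and 2 fell with the block). Of the 20, 2 entered through FO alone, and of the 17 above 16 in all 8 arrays 3 rose. Of 22 genes for astrocyte transport and coupling 0 were called, with a median of 0.04.

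Klk6, a secreted protease of oligodendrocytes, was at 16 in 3 FY arrays and at 24.1 in FY4, and it read 125, 54.4, 84.2 and 142 in FO (log2 2.42, SE 0.31, limma adjusted p = 7.83e-05). It was the single gene called among 29 myelin and mature oligodendrocyte genes, of which 27 were above 0, with a median of 0.28. Klk6 was also the 1 that entered through FO alone, and of the 28 above 16 in all 8 arrays 0 rose. Trf, the iron carrier transferrin, went from 1282 to 1940 in FY to 2032 to 3266 in FO (adjusted p = 0.0708, and 0.00197 with the replicate block in the 8 arrays). Hapln2, a link protein at nodes of Ranvier, went from 61.6 to 88.9 to 124 to 235 (adjusted p = 0.101, and 0.00202 with the block). Mbp, the myelin basic protein, had a difference of 0.12 at its brightest probe (SE 0.11, adjusted p = 0.964). The summed intensity of the list ran from 27821 to 36823 in FY and from 33022 to 46427 in FO (exact permutation p = 0.0857, two-sided). With the replicate block in the 8 arrays 12 of the 29 rose and Ptgds, the prostaglandin D synthase that the meninges also make, fell from 1529 to 2401 in FY to 633 to 999 in FO (adjusted p = 8.95e-04, and 0.754 without the block). Genes of oligodendrocyte precursors had a median of 0.04, with 0 of 15 called. Bmp4, a secreted growth factor in that list, went from 32.5 to 77.4 in FY to 16.1 to 35.5 in FO (log2 -1.26, adjusted p = 0.162, and 0.0481 with the block).

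The remaining risen genes had varied roles. S100a6, a calcium-binding protein, read 124, 101, 94.0 and 111 in FY and 234, 176, 183 and 196 in FO (log2 0.88, SE 0.16, limma adjusted p = 0.00402), and it was the single one of 7 S100 genes that rose. Pcdhb3, a neuronal adhesion protein of the clustered protocadherins, read 102, 119, 121 and 127 in FY and 211, 189, 239.5 and 213 in FO. It was the single one of 13 clustered protocadherins that rose, and 10 of the 13 were above 0, with a median of 0.22. Cela1, an elastase, went from 18.9 to 27.0 in FY to 50.2 to 61.3 in FO (log2 1.36, SE 0.16, adjusted p = 2.59e-05). Aldh1l2, a mitochondrial enzyme of folate metabolism, rose from 30.2 to 34.2 to 55.0 to 75.6 (log2 1.03, SE 0.18, adjusted p = 0.00199). Tnfsf13b, the B cell survival factor BAFF, rose at 2 probes, by 1.19 and 0.90. With Osmr and Csf3r, the receptor of granulocyte colony-stimulating factor (log2 0.78), 3 of 21 cytokine genes and receptors rose (5 with the replicate block in the 8 arrays). The Csf3r call was lost without any of 7 single arrays (adjusted p from 0.0557 to 0.135). Depp1, a regulator of autophagy, was at 16 in 3 FY arrays and read 39.6, 34.9, 36.8 and 106 in FO. Syngr1, a synaptic vesicle protein, rose at 1 of 4 probes (log2 0.96), while the other three ranged down to -0.07.

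In contrast, lists of antigen presentation and of the interferon response held few calls. Of 12 genes for major histocompatibility proteins and antigen presentation 0 were called, with a median of 0.22. B2m, the light chain of class I molecules, read 1757, 1277, 1612 and 1455 in FY and 2256, 2158, 2019 and 2414 in FO, without overlap, and was not called (log2 0.54, SE 0.13, limma adjusted p = 0.0635), while with the replicate block in the 8 arrays both of its probes rose (adjusted p = 0.0101 and 0.0201). Of 21 interferon response genes 1 rose, Trim30a, with FO at 20.3 to 30.3, close to the floor (adjusted p = 0.0257). It was the 1 that entered through FO alone, and of the 20 above 16 in all 8 arrays 0 rose. The Trim30a call was lost without any of 5 arrays and with the replicate block in the 8 arrays (adjusted p = 0.170). The proinflammatory cytokine genes Il1b, Tnf and Il6 had no probe above 16 in any of the 8 arrays.

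Without the replicate block 6 probes fell. Acta2, the actin of vascular smooth muscle, accounted for 4 of them, 1 of which was not called with the block in the 8 arrays (adjusted p = 0.0745). The brightest read 535, 659, 909.8 and 696 in FY and 353, 314, 238 and 305 in FO, a log2 difference of -1.2 (SE 0.24, limma adjusted p = 0.0112). The probe with the largest change read 66.8, 83.3, 114 and 84.4 in FY and 39.8, 32.5, 24.8 and 35.3 in FO (log2 -1.39, SE 0.28, adjusted p = 0.0103). FY3 was the highest young array and FO3 the lowest old array at both probes, and without FY3 or FO3 the latter probe had an adjusted p of 0.0584 or 0.0602. Myh11, the smooth muscle myosin, went from 29.0 to 44.2 in FY to 16 to 22.5 in FO (adjusted p = 0.0782), and Tpm2, a tropomyosin of contractile cells, from 28.6 to 50.9 to 16 to 19.6 (adjusted p = 0.106). Acta2 was the single gene called among 14 smooth muscle and pericyte genes, of which 11 were below 0. The summed intensity of this list was 3610 to 4305 in FY and 3152 to 3318 in FO (exact permutation p = 0.0286, two-sided). This sum is not separate from the Acta2 call. Its mean went from 3824 to 3212, and that of Acta2 within it from 700.1 to 302. Rgs4, the brightest member, had a log2 difference of -0.03, and the median of the list was -0.08. With the replicate block in the 8 arrays Acta2, Myh11, Tpm2 and Vtn, a plasma and pericyte matrix protein, fell.

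Erdr1, named as a regulator of erythroid differentiation, read 863, 993, 944 and 512 in FY and 354, 188, 16 and 171 in FO (log2 -2.79, SE 0.62, limma adjusted p = 0.0290). The groups did not overlap, but the size of the change rested partly on FO3, and without that array the difference was -1.84 (adjusted p = 0.0554). The call was also lost without any of 4 other arrays (adjusted p up to 0.107), and with the replicate block in the 8 arrays the adjusted p was 0.05 when rounded, just over the threshold. The last fallen probe carries no gene symbol. It read 72.6, 94.0, 98.9 and 124 in FY and 40.1, 16.2, 16 and 16 in FO. Large differences were more often negative than the calls were. Of the probes tested, 42 were at least 1 log2 unit higher in FO, of which 7 were not called, and 52 were at least that much lower, of which 46 were not called. The median SE of those 46 was 0.58, against 0.17 for the risen probes and 0.13 for all probes tested.

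Among these lower probes were some for genes known from tissues that border the hippocampus. The choroid plexus secretes cerebrospinal fluid into the ventricles, the meninges wrap the brain, and the ependyma lines the ventricles with ciliated cells. All 14 choroid plexus genes tested were below 0, with a median of -1.41, but 0 were called. Ttr, the carrier of thyroid hormone in cerebrospinal fluid, read 11979, 1481, 11316 and 13561 in FY and 3498, 2685, 2522 and 9209 in FO. FY2 was lower than every old array and FO4 was close to the young ones, so that the groups overlapped (limma adjusted p = 0.990). The summed choroid plexus intensity ran from 2641 to 20796 in FY and from 3675 to 11043 in FO (exact permutation p = 0.143, two-sided). Meningeal genes were lower as well, in 17 of 18 genes and with a median of -0.81. Igf2, the growth factor made by leptomeninges and choroid plexus, read 2345, 1378, 2750 and 4281 in FY and 1021, 761, 614 and 1218 in FO, without overlap (log2 -1.51, SE 0.53, adjusted p = 0.396, and 0.00273 with the replicate block in the 8 arrays). The summed meningeal intensity was 4489 to 8624 in FY and 3214 to 3531 in FO (exact permutation p = 0.0286). For the ependymal genes, all 11 of them below 0 with a median of -0.47, the sums were 917 to 1275 and 637 to 884 (exact permutation p = 0.0286).

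**Figure D4:**
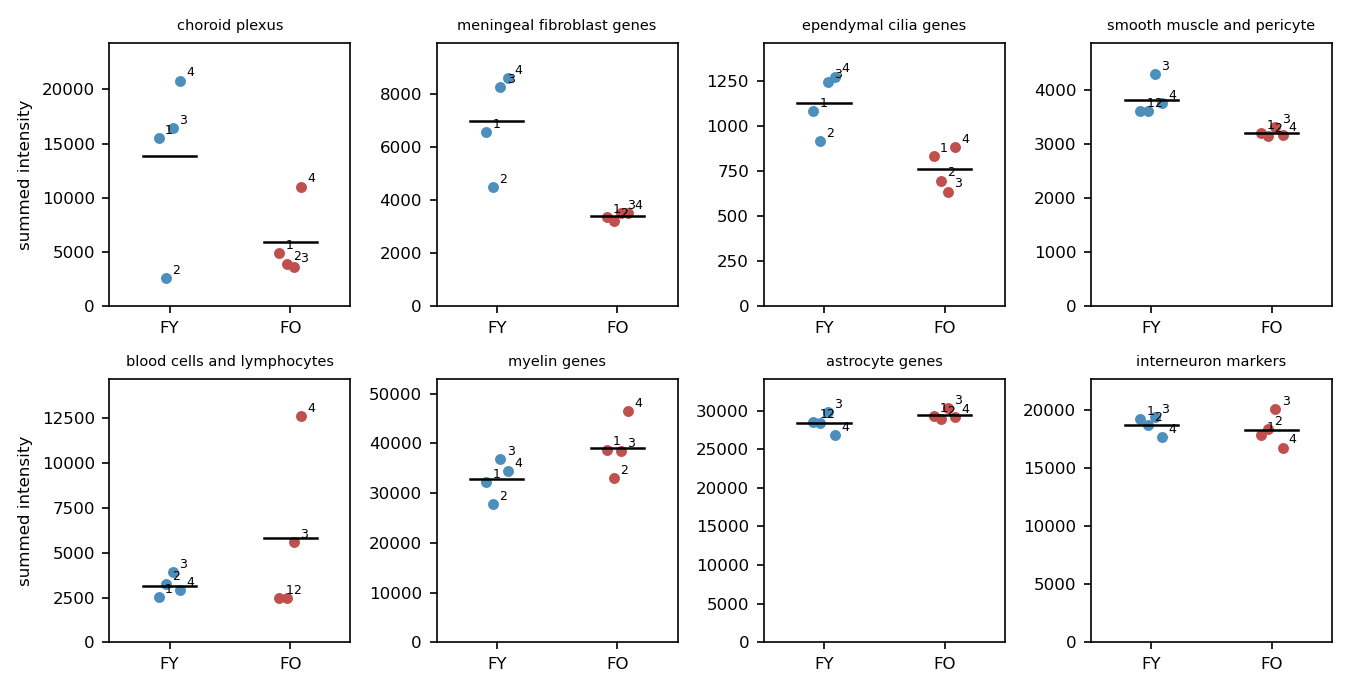
Summed intensity (y axis, linear scale) of the tested genes of 8 cell type lists in each FY (blue) and FO (red) array, numbered by replicate, with the group mean as a bar. The meningeal, ependymal and smooth muscle sums do not overlap between the groups, while the choroid plexus sums run from 2641 to 20796 in FY and from 3675 to 11043 in FO.

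With the replicate block in the 8 arrays, 6 of the 14 choroid plexus genes fell (Calml4, Clic6, Igfbp2, Kl, Lbp and Sostdc1), together with 7 of 18 meningeal and 4 of 11 ependymal genes. None of these was called without the block. In the fit with the block in the 8 arrays 81 named genes fell, and 16 of them are in these 3 lists. Clic6, a chloride channel protein of the choroid plexus, read 569, 71.0, 820.5 and 1365 in FY and 102, 66.1, 53.2 and 224 in FO. The young array was higher for each of the 4 replicate numbers (limma adjusted p = 0.0382, and 0.788 without the block). Gpx8, a peroxidase of the endoplasmic reticulum that is in none of the 3 lists, fell at 3 probes in the same fit, the first from 59.7 to 272 in FY to 23 to 53 in FO (adjusted p = 6.73e-04). The astrocyte transporters Slc7a10 and Slc7a11 also fell there (adjusted p = 0.0152 and 0.0354). How much of the tissue around the hippocampus was taken in each dissection is not given in the sources used here, and its part in these differences was not tested. With the mean choroid plexus level of each array as a covariate, added after the values were seen, limma called 91 probes, 85 of which rose, and 72 calls were shared. Red blood cell transcripts differed widely among the FO arrays. Hba-a1 read 2398, 2363, 5157 and 11677 in FO, against 2377 to 3632 in FY. Alas2, another marker of these cells, had means of 28.5 in FY and 88.2 in FO. The sum of the 2 overlapped between the groups, at 2397 to 3668 in FY and 2383 to 11901 in FO (exact permutation p = 0.400, two-sided).

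The lists of synaptic and neuronal marker genes drawn up for this comparison held no call without the replicate block. In the study's neuronal lists from Zeisel, 2 of 184 interneuron genes rose (Pcdhb3 and Tnfsf13b). In the same source 1 of 208 CA1 pyramidal genes (Serpina3n) and 0 of 135 S1 pyramidal genes rose. Across 34 genes of synaptic vesicle release the median was 0.04, across 25 glutamate receptor and postsynaptic scaffold genes -0.01, across 22 interneuron markers and neuropeptides -0.07, and across 18 markers of the CA1, CA3 and dentate subfields -0.01. Sst, the interneuron peptide somatostatin, went from 2945 to 3624 in FY to 2485 to 3444 in FO (limma adjusted p = 0.691), and Pvalb, the calcium buffer of basket cells, from 1051 to 1171 to 1256 to 1506 (adjusted p = 0.776). With the block in the 8 arrays Pvalb rose (adjusted p = 0.0475). Dcx, a marker of newborn neurons, read 84.8, 107, 79.2 and 72.2 in FY and 63.2, 68.7, 72.8 and 53.7 in FO, with overlap (log2 -0.40, SE 0.22, adjusted p = 0.83). Of 17 neurogenesis genes 11 were below 0, with a median of -0.11. Of 27 replication-dependent histone genes 26 were below 0, with a median of -0.18 and 0 calls. Immediate early genes had a median of 0.09, and 0 of 24 were called. Housekeeping pathways lay near 0, with medians of -0.04 for 66 respiratory chain genes, 0.01 for 53 ribosomal proteins, 0.07 for 24 cholesterol synthesis genes and -0.03 for 40 antioxidant genes, and none of these genes was called. The same held for 37 cathepsins and lysosomal genes, whose median was -0.00. With the block 2 of these 37 rose, one of them Ctsz, a cathepsin (adjusted p = 0.0272), and Gpx8 of the antioxidant list fell. Over all 8338 genes 51.2% were above 0.

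By the group means, the step after 12 months was the larger one for most risen probes. These contrasts share arrays with FO against FY, so that they are given only side by side. The median difference of the 76 risen probes was 0.24 over the step from FY to FA and 0.76 over that from FA to FO. The FA mean lay between the others for 70 of them and below the FY mean for 6, and 68 had the larger step after 12 months. These probes were picked for their FO minus FY difference. The same counts over all probes tested are not given here, so there is no background to read them against. The steps also differ in length, from 3 to 12 and from 12 to 24 months. For probes at 16 in FY the floor hides part of the first step, as for Ccl4 and Ccl3. Among the 47 risen probes above 16 in all FY, FA and FO arrays the medians were 0.25 and 0.69, and 41 had the larger second step. From the youngest to the oldest group, Ms4a6d had means of 28.0, 27.9 and 65.7, and Ly86 of 208, 208 and 357. Lsp1, which binds actin in leukocytes, differed from this pattern with means of 24.6, 39.6 and 50.1, a log2 difference of 0.69 over the first step and of 0.35 over the second. Pcdhb3 had 0.51 and 0.36 in the same order. The log2 differences of the 2 steps were -0.76 and -0.44 for Acta2 at its brightest probe and -0.10 and -2.69 for Erdr1.

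**Figure D5:**
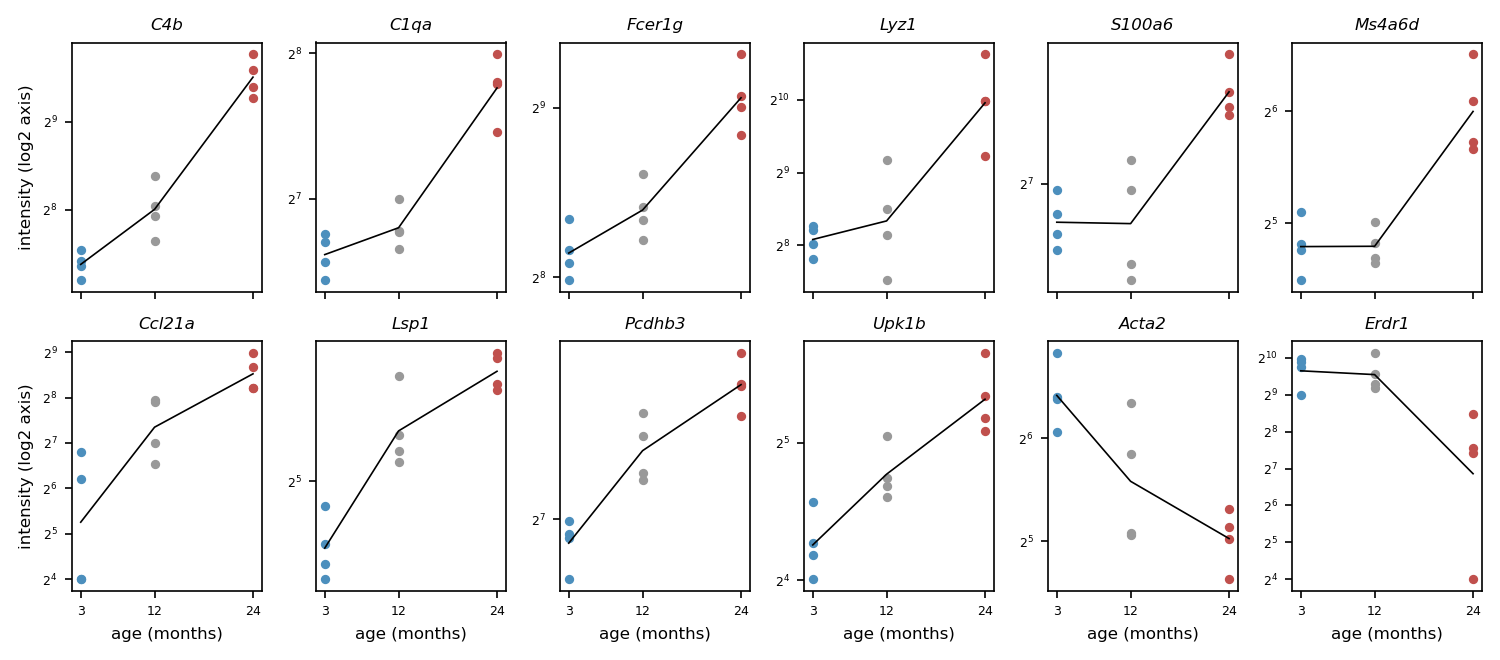
Normalized intensity (log2 axes that do not start at 0) of 10 risen and 2 fallen genes in female mice of 3, 12 and 24 months (x axis), 1 point per mouse, with lines joining the means of the log2 values. Ms4a6d had group means of 28.0, 27.9 and 65.7, while Lsp1 had 24.6, 39.6 and 50.1.

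In males, 71 of the 76 risen probes had a higher mean in MO than in MY, with a median of 0.46, and all 6 fallen probes were lower in MO. The same shares over all 11651 probes tested are not given here, so these counts have no background to be read against. The difference between the female and the male change was tested in the same fit and called 0 of 11651 probes (0%) at an adjusted p under 0.05, with 685 (5.88%) at an unadjusted p under 0.05. The lowest adjusted p was 0.103, for Ccl4, which was at 16 in all MY arrays and had a mean of 29.3 in MO.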

How the data were processed

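Total RNA of the dissected hippocampus was hybridised to Illumina MouseRef8 arrays, 1 per mouse. The deposited values are intensities on a linear scale that the authors took through average normalization and background subtraction in GenomeStudio 2011.1, as the submitters' processing notes name it. A table without normalization has 48 columns headed by array codes that match no sample, and it was not used, so that slide and position could not be tested as batches. The labels number the arrays 1 to 4 within a group, the study treats each as 1 animal, and the number of arrays limits the precision.

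Values under 16 were set to 16 and put on the log2 scale, because subtraction leaves values below 0. One limma model over the 6 groups (limma 3.58.1 in R 4.3.3, trend in the variance) gave the contrasts, with Benjamini-Hochberg adjustment over all probes tested and a threshold of 0.05. Sums of intensities were compared by exact permutation over the 70 divisions of 8 arrays, where the smallest two-sided p is 0.0286. These p-values were not adjusted for the number of sums. The methods' test was an analysis of variance with a minimum fold change. Tables and figures were made in Python 3.11.15. The fits were tested on simulated data.

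Gene symbols came from the platform annotation, which gives 1 symbol to 23978 probes, several to 0 and none to 1719, and 0 symbols were changed when set against RefSeq (GRCm38.p6). For gene lists the probe with the highest mean over the 8 arrays stood for a gene. The members and the lists were chosen with earlier results of these data known. Genes named were the 20 largest rises and up to 15 largest falls among called probes, called members of lists with the lowest p, genes the study measured by polymerase chain reaction, markers and genes whose probes disagreed. Any other gene was picked with its values in view.

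The replicate numbers come from the labels, which do not say whether a number marks a shared batch. Deviations of FY and FO arrays of the same number from their group means had r of 0.153, 0.198, 0.557 and 0.310 across probes. For arrays of different numbers r ran from -0.459 (FY4 and FO3) to 0.381 (FY4 and FO1). Only number 3, the 2 arrays of low weight, lay above that range. A fit with the number as a block was run beside the fit without it. Other alternatives were the floor, scaling, filter on dim probes, arrays fitted, array weights, variance trend, 1 probe per gene and leaving out each array. The 4 added after the data were seen were the block in the 8 arrays alone, 2 fits without a pair of arrays and a choroid plexus covariate.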

Additional observations from a re-analysis of the deposited data

Results flagged for a closer look

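In 8 of 212 groups of 4 values examined, 1 array lay far from the other 3 by Dixon's test at its 95% critical value. Chance gives about 1 such group in 20, and 8 of 212 is below that share, so the cases are description only. Of these, 7 concerned old females. FO4 was the high array in 5 of them. It read 106 for Depp1 (34.9 to 39.6 in the other old arrays) and 9209 for Ttr (2522 to 3498). Its summed choroid plexus intensity was 11043 (3675 to 4917), that of the defining choroid plexus markers, which share genes with it, was 9626 (2678 to 3727), and that of the endothelial genes was 9226 (7415 to 7598). FO3 was the high array in 2, with 436 for Gfap (168 to 197) and 8333 for the defining interneuron markers (6175 to 6377). The remaining case was FY2, whose defining ependymal markers summed to 16.3 (21.8 to 22.5), close to the floor. Some of these cases share genes, and a cause for them was not tested. Without FO4 limma called 53 probes in place of 82, of which 50 rose.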

How the results depend on the processing

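Limma called 82 probes (76 rises, 6 falls). The floor, scaling or a filter over all 6 groups moved the called count to between 64 and 98, with 3 falls at a floor of 32. With only the 8 arrays in the fit 17 probes fell. Among probes above 16 in all 8 arrays 47 were called (45 rises, 2 falls), fewer probes being tested, and among those above 64 in all arrays of a group 38 were (34 rises). Array weights gave 138 (131 rises), the methods' test 343 (231 rises, 112 falls) and 1 probe per gene 2 falls. The fit with the replicate block called 84 probes over 24 arrays and 246 over the 8 arrays (143 rises, 103 falls). The latter was added after the data were seen, as was leaving out FY3 and FO3 (43 called, 43 rises, 0 falls). Leaving out single arrays gave 53 (without FO4) to 87 calls, 50 to 83 rises and 1 (without FY3 or FO3) to 6 falls, with 3 without FY2 or FO4. The difference between the sexes had 0 calls and under 4 alternatives more: 1 at a floor of 32, 1 without a filter on dim probes, 1 with array weights and 2 without a variance trend, and 0 to 2 (2 without FO2) with single arrays left out. Of the 59 named genes called, 27 stayed past the threshold under each of the 26 alternatives that tested them, none turned its direction, and 16 lost the call when some single array was left out. With 4 arrays a group and intensities near 16, small differences were not detectable. Causes of these shifts were not tested.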
